A study of Homo sapiens with 6 samples.

Results

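NFIL3, DBP, TEF and HLF were examined in SU-CCS-1, an established cell line of clear cell sarcoma (CCS), a soft tissue tumor, with the genotype EWSR1::ATF1, the fusion gene that defines it. Chromatin immunoprecipitation followed by sequencing (ChIP-seq) was performed with an antibody to H3K27ac, a histone acetylation found at promoters and enhancers in use. There were 3 H3K27ac samples and 3 input samples, input being sonicated chromatin sequenced without immunoprecipitation, and all 6 carried the same fusion, with no condition without it. The measurement was 1 merged list of 30784 peaks on hg38, without a score, read count or value per sample. No depth, replicate error or test could therefore be attached to any value below, and every comparison is a description of this 1 list from 1 cell line. A locus without a peak lay below the cutoff of the peak caller or was removed after calling, which does not show that acetylation was absent.

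The 4 genes were chosen as members of 1 regulatory family among 20015 protein-coding genes, and their peaks as all listed peaks that overlapped a GENCODE v44 gene body or lay within 100 kb of it. This gave 39 of the 30784 peaks, 9 at NFIL3, 10 at DBP, 20 at TEF and 0 at HLF. A promoter peak was one within 3 kb of any transcript start of a gene. Promoter peaks were listed for 5 of 6 markers of the melanocyte lineage that CCS resembles, SOX10, MITF, PMEL, MLANA and S100B, and not for TYR. Among all protein-coding genes, 63.4% had a promoter peak. None of the 4 skeletal muscle, 3 blood and 3 epithelial markers had one.

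DBP, TEF and HLF are the PAR bZIP factors, named for a region rich in proline and acidic residues next to the basic leucine zipper. They bind a DNA element called the D-box and activate transcription, whereas NFIL3, also called E4BP4, binds the same element and represses it. In the circadian clock, CLOCK and BMAL1 drive DBP through E-boxes, and the REV-ERB and ROR receptors act on NFIL3 in opposite directions, so that activators and repressor of the D-box peak at different phases. Outside the clock, NFIL3 is known for its part in natural killer cell development, DBP for the albumin promoter in liver, TEF for the pituitary thyrotroph, and HLF for blood stem cells and for its fusion with TCF3 in leukemia.

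The promoters of the 4 genes are shown first because they set the gene without a peak beside those with one. Each line gives 250 bases before the canonical start and the first 10 from it, read along the gene from the RefSeq promoter set of build GRCh38.p14. Capitals mark matches on either strand to the motifs searched.

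NFIL3 promoter, chr9:91423823-91424082, minus strand: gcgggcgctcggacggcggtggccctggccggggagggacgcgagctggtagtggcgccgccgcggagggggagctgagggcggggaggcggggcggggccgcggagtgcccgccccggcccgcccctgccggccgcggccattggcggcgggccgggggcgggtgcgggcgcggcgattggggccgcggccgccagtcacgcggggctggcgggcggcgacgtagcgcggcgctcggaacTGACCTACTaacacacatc
DBP promoter, chr19:48637370-48637629, minus strand: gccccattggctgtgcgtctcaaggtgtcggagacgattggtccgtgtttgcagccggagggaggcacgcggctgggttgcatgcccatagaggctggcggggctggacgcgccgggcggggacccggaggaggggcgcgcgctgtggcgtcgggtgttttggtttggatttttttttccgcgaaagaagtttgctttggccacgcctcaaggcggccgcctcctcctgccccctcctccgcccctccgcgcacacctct
TEF promoter, chr22:41381692-41381951, plus strand: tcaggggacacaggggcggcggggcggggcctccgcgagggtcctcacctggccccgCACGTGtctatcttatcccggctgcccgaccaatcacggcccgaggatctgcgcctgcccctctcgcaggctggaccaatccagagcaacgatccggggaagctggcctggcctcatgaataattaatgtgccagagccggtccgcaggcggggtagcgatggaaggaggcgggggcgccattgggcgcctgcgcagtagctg
HLF promoter, chr17:55264710-55264969, plus strand: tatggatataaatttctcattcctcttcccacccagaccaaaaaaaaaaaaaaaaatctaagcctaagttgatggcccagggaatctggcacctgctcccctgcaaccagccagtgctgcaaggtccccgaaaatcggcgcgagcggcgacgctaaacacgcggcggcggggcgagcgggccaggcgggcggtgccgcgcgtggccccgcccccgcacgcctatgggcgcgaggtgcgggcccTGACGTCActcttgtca

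The NFIL3 promoter held TGACCTACT, the reverse complement of the REV-ERB and ROR motif ANTAGGTCA, in the 9 bases that end at the base before the start. This motif was found in 0.490% of 35114 RefSeq promoters of 300 bases. The TEF promoter held the E-box CACGTG, found in 7.26% of promoters, 193 bases before the start. In HLF, the ATF/CREB motif TGACGTCA, which is the palindrome that ATF1 and its relatives bind and was found in 1.85% of promoters, ended on the start base itself. The DBP promoter held no match to the motifs searched. The D-box, searched as TTATGTAA or TTACGTAA on both strands, was in none of the 7 RefSeq promoters of the 4 genes and in 1.01% of all promoters. A match describes letters and not a bound site.

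The 4 promoters also differed in base composition. Over the 300 bases, the NFIL3 promoter was 83.0% GC, at or above 99.3% of RefSeq promoters, with a ratio of observed to expected CpG of 1.09. The ratio was 0.924 for DBP, 0.798 for TEF and 0.999 for HLF, against a median of 0.579. HLF, the 1 member with no peak, thus had the highest CpG ratio of these 4 promoters after NFIL3, at or above 91.6% of all. Of the 2956 promoters with a ratio at least that of HLF, 81.1% had their start inside a peak, against 40.0% of all 35114. Of the 649 promoters that held TGACGTCA, 68.7% did. Of the 4043 that held the looser TGANNTCA, which includes it, 25.9% did. For the D-box the share was 56.8% of 44 with TTACGTAA, which holds a CpG, and 13.8% of 311 with TTATGTAA, which does not. Whether TGACGTCA itself goes with a peak was not tested.

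The canonical starts of NFIL3, DBP and TEF each lay inside a peak, and so 3 of 4 members had a promoter peak, against 63.4% of all protein-coding genes. A peak over the canonical start itself was listed for 53.5% of protein-coding genes and for the same 3 of 4 members. With 4 genes, these counts lie near the background. The genes differed in where the peaks lay and in how much of the gene they covered, as the map of the 4 windows shows.

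**Figure D1:**
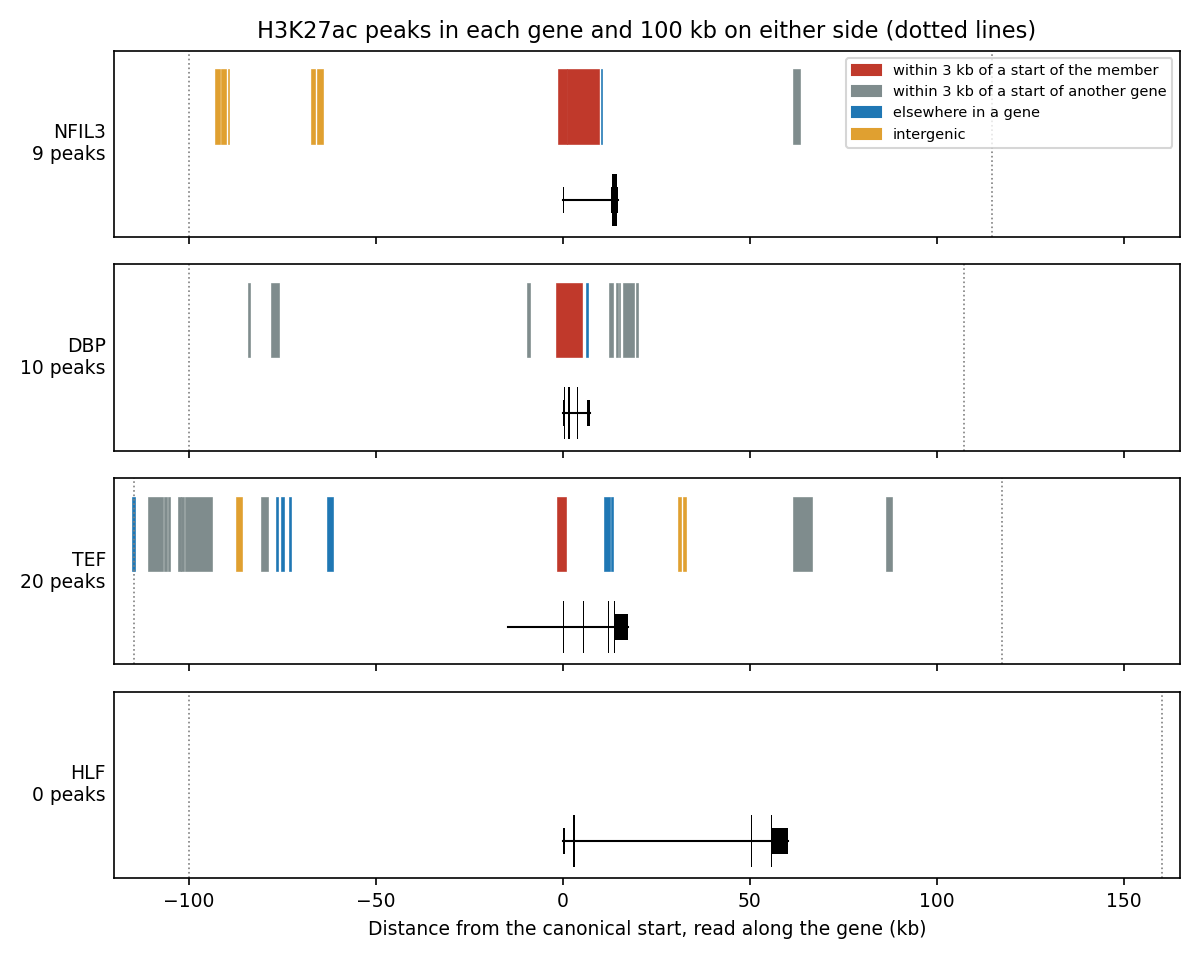
Peaks (blocks) in the body of each gene and within 100 kb on either side (dotted lines), by distance in kb from the canonical start read along the gene, with the gene model in black (tall blocks are coding bases, low blocks untranslated exon). NFIL3 had 9 peaks, DBP 10, TEF 20 and HLF 0, and red blocks lie within 3 kb of a start of the gene itself.

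NFIL3 (ENSG00000165030.4) occupies chr9:91409045-91423832 on the minus strand, with 1 annotated transcript of 2 exons. The first peak was 2420 bases wide, from 1418 bases before to 1001 bases after the start (chr9:91422831-91425250). It covered the noncoding first exon and the start of intron 1. A start of another annotated gene also lay within 3 kb of it, so it cannot be assigned to NFIL3 alone. After a gap of 220 bases came a peak of 8350 bases, from 1.22 to 9.57 kb after the start (chr9:91414261-91422610), which lay wholly in intron 1 and was at least as wide as 99.5% of all peaks. A further peak of 410 bases followed at 10.14 to 10.55 kb. Together the 3 peaks covered 9.57 of the 12.73 kb of intron 1, or 75.2%, against a median of 2.43% for the first intron over 18898 genes, of which 12.3% had at least that share. The second exon, which holds all 1386 coding bases, had no peak. The RefSeq set also listed an NFIL3 start 794 bases upstream, and this start lay inside the 2420-base peak as well.

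The intronic peak differed in composition from the peak at the start. Its GC content was 40.4%, and 3.21% of the 18845 peaks within 3 kb of a start of any gene had a GC content as low, their median being 58.2%. The peak over the start was 64.9% GC. Over the 10 kb after the canonical start, 9351 bases of NFIL3 lay in peaks, and 44 of 20015 protein-coding genes, or 0.220%, had at least as many. Over the 10 kb before the start the value was 1418 bases, reached by 15.2% of genes. Most of the sequence in peaks at NFIL3 was thus on the transcribed side of the start.

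The 9 peaks in the NFIL3 window were reached by 25.1% of genes, against a median of 4 peaks. Those outside the gene lay far from it. The nearest peak on the upstream side was 64.06 kb from the gene and the nearest on the downstream side 46.7 kb. The 5 upstream peaks were all intergenic and formed a pair of 1590 and 1210 bases at 64.06 to 67.39 kb and a group of 500, 1330 and 1340 bases at 89.18 to 93.00 kb. The downstream peak, of 1960 bases, marked the promoter of AUH, an enzyme of leucine breakdown and the only other protein-coding gene in the window. Any link of the 5 upstream peaks to NFIL3 was not tested.

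DBP (ENSG00000105516.11) occupies chr19:48630030-48637379 on the minus strand, with 5 annotated transcripts. A single peak of 6920 bases ran from 1.85 kb before to 5.07 kb after the canonical start (chr19:48632311-48639230) and held the starts of all 5 transcripts. A second peak of 700 bases, at 6.11 to 6.81 kb, covered the end of the coding sequence and lay also in SPHK2, which encodes a sphingosine kinase. These peaks covered 78.5% of the gene body and each of its 975 coding bases. All coding bases were inside peaks in 1.83% of protein-coding genes, whereas 58.3% of genes, like NFIL3 and HLF, had none inside. The peak over the DBP start reached 5068 bases past it, and 1.08% of the 10717 genes with a peak over the canonical start had one that reached as far, the median being 847.

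The surroundings of DBP were dense in genes, and the remaining 8 peaks of its window lay within 3 kb of starts of other genes. The 6920-base peak was also within 3 kb of a start of CA11, a carbonic anhydrase-related gene, and of SEC1P, a pseudogene, so it cannot be assigned to DBP alone. A peak of 970 bases marked CA11 at 8.68 to 9.65 kb upstream, and 5 peaks of 440 to 2980 bases lay 12.42 to 20.15 kb past the DBP start around SPHK2 and RPL18, a ribosomal protein gene. Peaks of 2120 and 490 bases marked MAMSTR, a coactivator gene. In all, 6 of the 10 other protein-coding genes in the window had a promoter peak, a share near the 63.4% of all protein-coding genes. The count of 10 peaks at DBP was reached by 20.9% of all genes and by 40.4% of the genes on chromosome 19.

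TEF (ENSG00000167074.15) occupies chr22:41367333-41399326 on the plus strand, with 3 annotated transcripts. The peak over its canonical start was 2440 bases wide, from 1.66 kb before to 0.78 kb after it (chr22:41380281-41382720). A start of another annotated gene lay within 3 kb of this peak, so it cannot be assigned to TEF alone. The outermost annotated start lies further upstream, and the nearest peak to it was 12.95 kb away. The RefSeq promoter at that end of the gene, with its start at 41367455, had no peak either, so the listed peak marked the inner promoter of the pair. The third annotated start lay 0.21 kb past the edge of the promoter peak.

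Of the 20 peaks in the TEF window, 3 touched the gene, as many as at NFIL3. A peak of 1570 bases at 11.05 to 12.62 kb covered the 221 bases of the third coding exon, and a peak of 710 bases at 12.80 to 13.51 kb lay in the intron after it. Peaks covered 14.8% of the body, 10.1% of the first intron and 41.6% of the 909 coding bases. The 20 peaks of the window were reached by 2.77% of genes and by 5.37% of those on chromosome 22. Promoters of the neighbors made up 9 of them, with widths of up to 7100 bases at RANGAP1, the activator of the Ran GTPase. A pair of intergenic peaks of 850 bases each lay 30.87 to 32.91 kb past the start, with their relation to TEF not tested.

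HLF (ENSG00000108924.14) occupies chr17:55264960-55325187 on the plus strand and is, with 60.23 kb, the longest of the 4 genes. None of its 11 annotated transcripts started in a peak, and no peak lay in the body or within 100 kb. Such a window without a peak was found for 11.0% of protein-coding genes. The nearest peaks were 295.2 kb before and 251.5 kb after the gene. They bounded a stretch of 606.9 kb without a peak, and 2.96% of the 30760 gaps between neighboring peaks were at least as long, the median gap being 17.9 kb. Counted by genes, 10.1% of protein-coding genes lay wholly inside a gap at least as long. On chromosome 17, 20 of 1697 gaps were as long or longer. The stretch wholly contained 3 protein-coding genes, HLF, MMD and SMIM36, none with a promoter peak, whereas STXBP4 at its edge had 2.

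Across the genes, the share inside peaks did not follow the number of peaks around them. The gene bodies of NFIL3 and DBP were covered to 66.0% and 78.5%, values reached by 1.75% and 1.34% of protein-coding genes, and that of TEF to 14.8%, reached by 12.5%. The median over all genes was 1.45%. TEF had the most peaks in its window and the lowest coverage of the 3 genes with peaks. The bodies differ in length, with 14.79 kb for NFIL3, 7.35 kb for DBP and 31.99 kb for TEF. In bases, 9.76 kb of NFIL3, 5.77 kb of DBP and 4.72 kb of TEF lay in peaks, so DBP and TEF were closer than their shares. The shares of genes that reached these values were not matched for gene length.

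**Figure D2:**
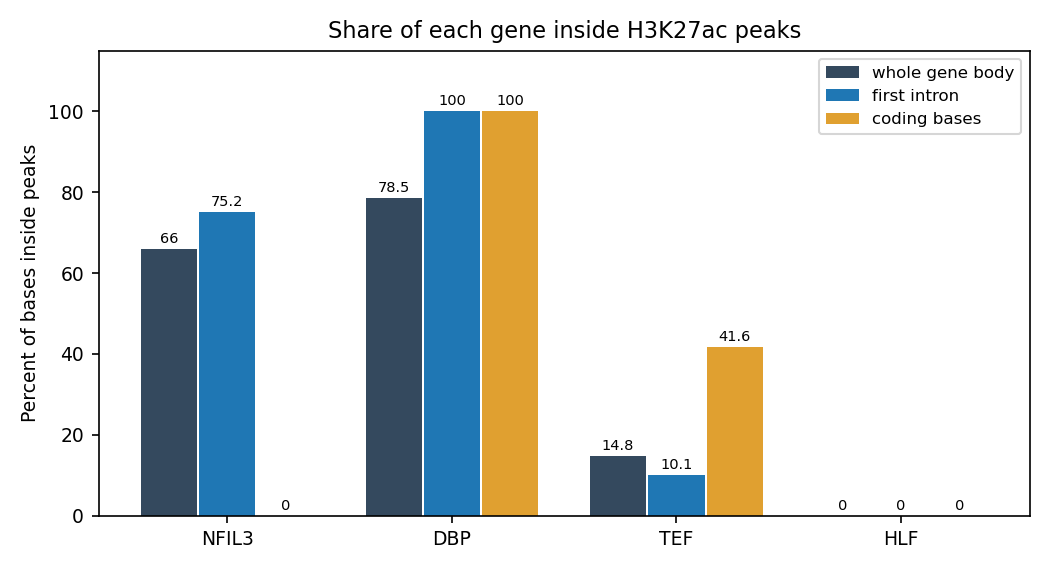
Percent of the bases of each gene inside peaks, from 0 to 100, for the whole body, the first intron and the coding bases of the canonical transcript (1 value per bar, no replicates). NFIL3 had 75.2% of its first intron and 0% of its coding bases in peaks, DBP had 100% of both, TEF had 10.1% and 41.6%, and HLF had none.

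The widest promoter peak was 8350 bases for NFIL3, 6920 for DBP and 2440 for TEF. Promoter peaks at least as wide were listed for 134 genes (0.669%), 211 genes (1.05%) and 2663 genes (13.3%), respectively. Among the 12691 genes that had a promoter peak the median was 1600 bases, with quartiles of 1110 and 2250. NFIL3 took its place from the intronic peak, which begins 1.22 kb past the start. With a promoter window of 1 kb the 2420-base peak counted in its stead, and 2541 genes had one at least as wide.

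**Figure D3:**
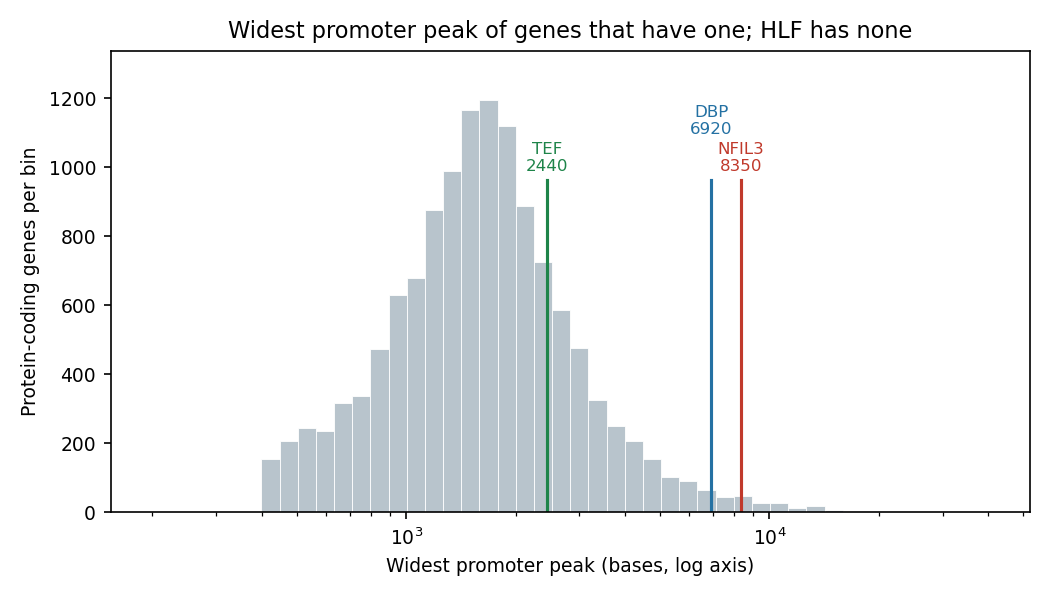
Number of protein-coding genes by the width in bases (log axis) of their widest promoter peak, for the 12691 genes that have one, with NFIL3, DBP and TEF as vertical lines. NFIL3 (8350 bases) and DBP (6920 bases) lie in the right tail and TEF (2440 bases) near the upper quartile of 2250.

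Joining peaks no more than 12.5 kb apart, the distance the study used before calling super-enhancers, gave 17049 regions. The list holds no signal, and regions were ranked by summed peak width, with the cutoff where the scaled curve of ranked widths has a slope of 1. Regions past the cutoff lay at the body or promoter of 7.64% of protein-coding genes and of 2 of 4 members, NFIL3 and DBP. The NFIL3 region held only the 3 peaks that touch the gene, with 93.4% of its span of 11.97 kb inside them. The DBP region, of 8 peaks, reached from RPL18 to CA11 over 29.80 kb, of which 47.5% lay in peaks. The TEF region summed to 4.72 kb over 15.17 kb and was not past the cutoff. By span, NFIL3 fell to rank 2182 and was not past the cutoff of 973, whereas DBP, at rank 429, was past it. With peaks wholly within 2500 bases of a start left out, neither NFIL3 (rank 469) nor DBP (rank 607) was past the cutoff of 460.

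**Figure D4:**
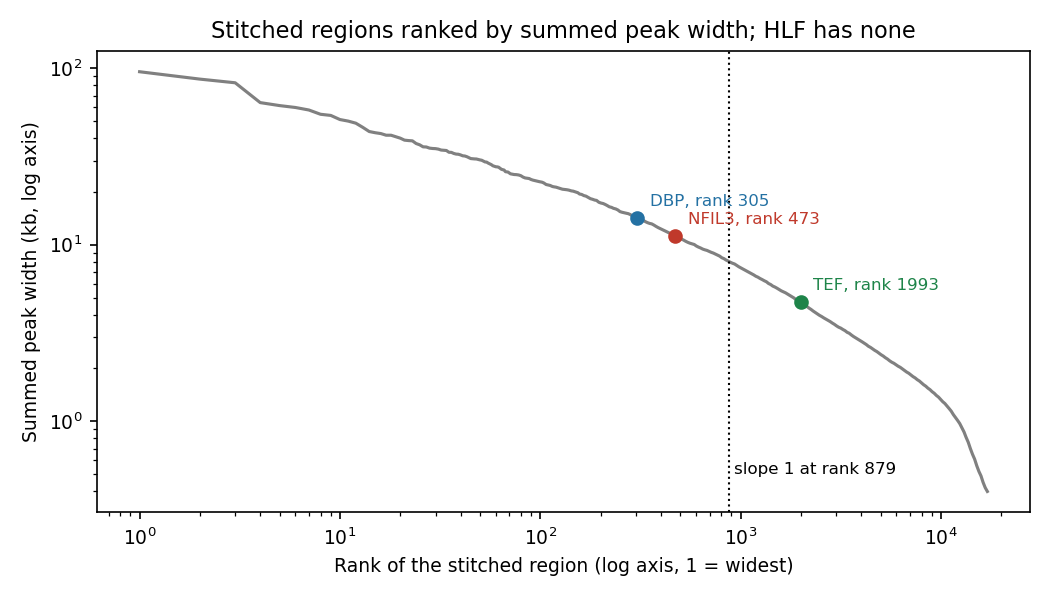
Summed peak width in kb (log axis) against the rank of each stitched region (log axis) with NFIL3, DBP and TEF as points; the dotted line is the cutoff, set on linear axes scaled to the same length. DBP (rank 305) and NFIL3 (rank 473) lie to the left of the cutoff at rank 879 and TEF (rank 1993) to the right.

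Selected matches in the promoter peaks of the 3 genes are shown as stretches of 30 bases, read along the gene on hg38, because D-boxes, E-boxes and REV-ERB and ROR elements are known inputs of the clock and TGACGTCA is the element of ATF1. Capitals mark the match.

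NFIL3 D-box at +0.35 kb, chr9:91423466-91423495, minus strand: cggggcattcaTTACATAAacttttgctgc
NFIL3 D-box at +1.23 kb, chr9:91422582-91422611, minus strand: gaaatgttgcaTTATGTAActgccgaattt
NFIL3 REV-ERB and ROR motif at +5.96 kb, chr9:91417855-91417884, minus strand: caaatagaaaaAGTAGGTCAatttgttgct
DBP ATF/CREB motif at -1.73 kb, chr19:48639094-48639123, minus strand: ggtttcctgcgTGACGTCAccaagaccatt
DBP E-box at +2.68 kb, chr19:48634684-48634713, minus strand: acattcctgcgcCACGTGagtcctcccatc
DBP E-box at +2.81 kb, chr19:48634549-48634578, minus strand: agcaggcgtcagCACGTGactcggccctga
DBP E-box at +3.71 kb, chr19:48633657-48633686, minus strand: acactcagctgaCACGTGctgtttccccaa
TEF E-box at -0.61 kb, chr22:41381316-41381345, plus strand: gccacagccccgCACGTGcggcgcctcgtg
TEF E-box at -0.50 kb, chr22:41381427-41381456, plus strand: cggctgcggctcCACGTGacccgcgggggg
TEF E-box at -0.19 kb, chr22:41381737-41381766, plus strand: cacctggccccgCACGTGtctatcttatcc

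Matches to the D-box TTATGTAA, on either strand, lay in both wide peaks of NFIL3, the gene that encodes its repressor. The first was in intron 1, 0.35 kb after the start, and the second began 1.23 kb after the start, 10 bases from the edge of the 8350-base peak that faces the promoter. Among peaks within 10% of the same width, 5.18% of 1796 held TTATGTAA for the 2420-base peak and 16.1% of 112 for the 8350-base peak. A further match lay in the upstream intergenic peak of 1210 bases, 66.65 kb before the start. The 10 peaks at DBP held no match to TTATGTAA or TTACGTAA. In the TEF window, TTACGTAA lay at 32.06 kb past the start in an intergenic peak, and 2 matches to TTATGTAA lay in the 7100-base peak at RANGAP1. The TTACGTAA match lay 1 base from the edge of its peak. Edges lie on a grid of 10 bases, so its place inside the peak is uncertain. Over the 39 peaks there were 5 matches to TTATGTAA, or 70.8 per Mb, against 24.2 per Mb over all peaks. GC content was not matched in this comparison, nor in any comparison with peaks of like width. The rate was 19.7 per Mb in peaks within 3 kb of a start (median GC 58.2%) and 33.9 in the others (47.7%). The peaks with a match had a GC content of 40.4% (8350 bases), 41.9% (1210), 50.7% (7100) and 64.9% (2420).

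The REV-ERB and ROR motif ANTAGGTCA was found at the NFIL3 start, as shown above, and again at 5.96 kb in intron 1. Of the peaks of like width, 3.67% held it for the 2420-base peak and 6.25% for the 8350-base peak. These peaks were matched for width and not for GC content. The rate of this motif was 12.3 per Mb in peaks within 3 kb of a start and 19.1 in the others. The E-box CACGTG occurred 3 times in the DBP peak, each in an intron of the canonical transcript, and 69.9% of 153 peaks of like width held at least 1, with a mean of 1.39 matches. It occurred 3 times also in the narrower TEF peak, each before the canonical start, where 36.7% of 1763 peaks of like width held it and the mean was 0.487. The NFIL3 peaks held CACGTG 1.15 kb before and 9.02 kb after the start.

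TGACGTCA was found in the DBP peak, 1.73 kb before the start, and in the 2980-base peak at RPL18 and SPHK2, and in no peak at NFIL3 or TEF. Of the 153 peaks of like width, 9.80% held it. The match in the DBP peak lay within the body of CA11, 118 bases from the upstream edge of the peak. The AP1 motif TGAGTCA occurred 3 times in the wide NFIL3 peaks, 1.24 kb before and 3.81 and 4.43 kb after the start, once in the DBP peak and once in the TEF peak. Among peaks of like width, 73.2% held the AP1 motif for the DBP peak and 76.8% for the 8350-base NFIL3 peak. For the 2420-base NFIL3 peak and the TEF peak the shares were 28.5% and 28.4%. The looser form TGANNTCA, which includes TGACGTCA, occurred 36 times in the 39 peaks, or 509 per Mb, against 466 per Mb over all peaks. Stretches in which over 4 copies of TGA or TCA follow each other, at most 5 bases apart, occurred 5 times, or 70.8 per Mb against 52.7. Whether EWSR1::ATF1 or any clock factor was bound at these matches was not measured by the acetylation data.

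**Figure D5:**
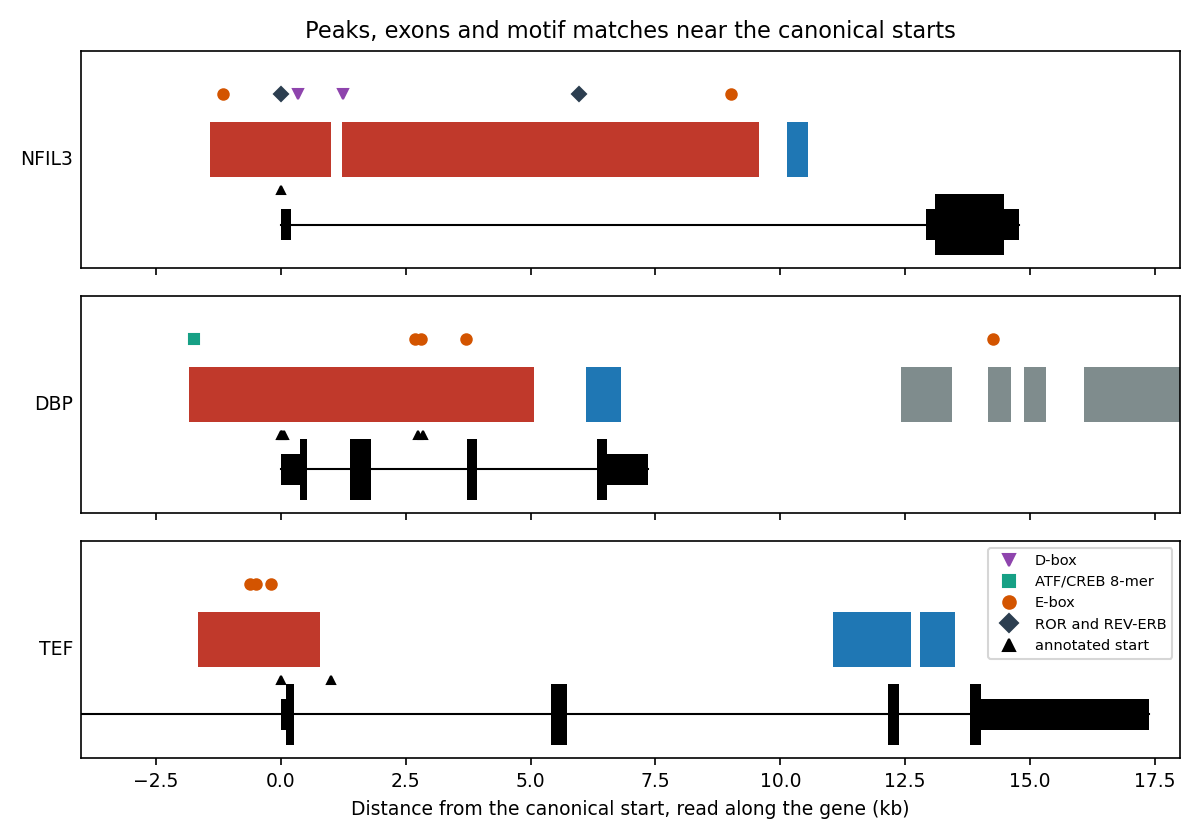
Peaks (blocks), annotated starts (black triangles), exons (black) and motif matches inside the peaks (symbols) from 4 kb before to 18 kb after the canonical starts of NFIL3, DBP and TEF, in kb along the gene. The 8350-base NFIL3 peak ends before the coding exon, the 6920-base DBP peak crosses 3 coding exons, and the 3 TEF E-boxes lie before the start.

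Peaks were listed at most other genes of the clock circuit. Of 22 protein-coding genes of the clock loop, 21 had a promoter peak (95.5%), against 63.4% of all protein-coding genes, and 5 had a stitched region past the cutoff, against 7.64%. The median of the widest promoter peak was 2075 bases against 1020 with genes without one counted as 0, and against 1600 among all genes that have one. These genes comprised the activators CLOCK (2190 bases) and BMAL1 (2160), the repressors PER1 (1190), PER2 (1970), CRY1 (1560) and CRY2 (930), and the receptors NR1D1 (7190), NR1D2 (2100) and RORA (2270). NR1D1, which encodes REV-ERB alpha and represses NFIL3, and BHLHE40 (8150), a repressor that acts on E-boxes, had widths in the range of DBP and NFIL3. RORB had no peak in its body or within 100 kb, as was the case for HLF.

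The C/EBP factors, whose DNA sites resemble the D-box, had a promoter peak for 5 of 6 genes, against 63.4% of all protein-coding genes. With genes without one counted as 0, their median width was 2095 bases, against 1020 over all protein-coding genes. The widest were at DDIT3 (5340), which encodes a stress-induced dimer partner, and CEBPB (3760), and CEBPE, a factor of granulocytes, had none. None of the 6 had a stitched region past the cutoff, against 7.64% of all genes. Since both lists were set with earlier results of these peaks known, their counts are descriptions beside the background and not tests.

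The peak coverage from 10 kb before to 20 kb after the canonical start was compared with that of every other protein-coding gene by the Jaccard index, the shared covered bases over all bases covered in either. The pattern of NFIL3 was most like those of TRIB2 (0.847), CNP (0.839) and ODC1 (0.825). For TEF the values were 0.783 for TUBA3FP, 0.765 for SEC16A and 0.749 for ORMDL2. The pattern in the DBP window had no match as close, with 0.611 for ACSL1, 0.607 for NRP2 and 0.599 for ZC3H4. This window also held the peaks at CA11, SPHK2 and RPL18, so its pattern is that of the locus and not of DBP alone. In the windows of NFIL3 and TEF, all peaks touched the gene itself. Whether the peaks of the neighbors lowered the values for DBP was not tested.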

How the data were processed

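The authors fragmented SU-CCS-1 chromatin by sonication, immunoprecipitated it with anti-H3K27ac, aligned reads to hg38 with BWA-MEM 0.7.10-r789 and called peaks with MACS2 2.2.6 in broad mode against input. They removed duplicates and peaks in ENCODE denylisted regions and deposited 1 list, without counts or scores, on a grid of 10 bases. Broad calling joins neighboring stretches, and widths depend on depth and cutoff. Whether reads or peak lists were merged is not given in the sources used here. Groups of 3 H3K27ac and 3 input samples came from the labels.

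Peaks were set against GENCODE v44 (20015 protein-coding genes) in Python 3.11.15 with numpy 2.4.6 and plotted with matplotlib 3.10.9. No test was run, since the list has no replicate. Starts within 3 kb, flanks of 100 kb and stitching within 12.5 kb were used, with the alternatives given at the end. Motifs were read on both strands from hg38 and from RefSeq promoters of GRCh38.p14, which held 7 promoters of the 4 genes. All listed positions fell inside the chromosomes of hg38. The interval and motif steps were tested on simulated data and gave the planted value in 8 of 8 checks. The members and gene lists were chosen with earlier results of these data known. The text names the 4 genes, the list and marker genes, neighbors with starts within 3 kb of a peak in the windows, genes inside the HLF gap, and the 3 genes most alike to each member in peak coverage. One neighboring gene is not reported here.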

Additional observations from a re-analysis of the deposited data

How the results depend on the processing

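Of 65 values recomputed over 19 results, 51 stayed close to the main value, 14 moved and 0 reversed. For the stitched regions the values compared were ranks, so a change of side at the cutoff was not counted as reversed. The 3 of 4 members with a promoter peak, the 0 peaks at HLF and the absence of a D-box from the promoters held under each alternative run for them. The bases of each gene body in peaks and the 6 D-box matches (9 as TTANGTAA) moved by at most 1.5 times. The peak counts moved with the flank, to 4 at NFIL3 and 7 at TEF with 50 kb and 19 at DBP with 200 kb. With the widest 50% of peaks they were 3 at DBP and 9 at TEF. With the widest 25%, 3 C/EBP genes had a promoter peak. When promoter peaks were summed, 224 genes reached NFIL3 and 606 reached DBP, and with a window of 1 kb 2541 genes reached NFIL3. With stitching at 5 kb the ranks were 299 for NFIL3, 689 for DBP and 4884 for TEF, with those of NFIL3 and DBP past the cutoff of 889. By span, NFIL3 was at rank 2182 and no longer past the cutoff of 973. With peaks wholly within 2500 bases of a start left out, NFIL3 (rank 469) and DBP (rank 607) were no longer past the cutoff of 460. The stitched calls are thus the least stable values here. No paired analysis was possible because the list has no column per sample, and leaving out a replicate could not be run for the same reason. Depth and signal over input are unknown, so that widths and absences carry no error.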
